A study of Mus musculus with 12 samples.

Results

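The 26S proteasome is the protease that degrades ubiquitin-tagged proteins, and its subunit genes were followed here in the cortex of mice that carry, or do not carry, a mutant human tau transgene. The subunit genes were taken from the deposited tables by name: every gene whose symbol is Psma, Psmb, Psmc or Psmd followed by a number, without the inducible immunoproteasome genes Psmb8 and Psmb9. This gave 37 of 48526 genes listed, of which 8 code for the alpha ring of the 20S core, 9 for its beta ring, 6 for ATPases of the 19S base, 11 for non-ATPase subunits of the 19S particle and 3 for 19S assembly factors. All 37 carry the type protein coding in the GENCODE annotation of GRCm38 and lie on 16 chromosomes, with 6 genes on chromosome 11.

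RNA came from untreated mice of C57Bl/6 background in groups of 3: TAU58/2 transgenic mice aged 10 months, non-transgenic mice aged 10 months, TAU58/2 transgenic mice aged 3 months and non-transgenic mice aged 3 months. TAU58/2 is a line that expresses mutant human tau, of a kind that causes inherited frontotemporal dementia, from the neuronal Thy1 promoter. No sample in the series received an agent, and nothing in the labels says whether males and females were balanced. Libraries are named by their label and replicate number, and the design text calls the replicates biological.

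In the 26S proteasome, a barrel of stacked rings holds the proteolytic sites inside and regulatory caps sit on its ends. The outer alpha rings form the gate, the inner beta rings carry the active sites, and the 19S cap binds ubiquitin chains, removes them and threads the substrate into the barrel with its ring of ATPases. Each particle holds its subunits in fixed proportions, and in mammalian cells the transcription factor NRF1, the product of Nfe2l1, raises many subunit genes together when proteasome activity falls. In neurons the proteasome clears short-lived and misfolded proteins, and tau is among its known substrates.

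The deposited unit is FPKM, sequenced fragments divided by transcript length and by library total, so levels of different genes can be compared per length. The libraries summed to between 125933 and 158077 FPKM with unknown depth, and an exact 0 is given only as listed at 0, since it can be a failed estimate. The neuronal markers Snap25, Syt1, Rbfox3, Slc17a7 and Gad1 were listed in every library and summed to between 319 and 648 FPKM. The library labelled 10-month transgenic 1 also held 13415 FPKM of the pituitary genes Gh, Prl, Pomc and Cga, against at most 53.8 FPKM elsewhere. Ttr, Kl and Folr1 of the choroid plexus summed to 729 FPKM in the 3-month control 1 library and to between 5.24 and 439 FPKM in the others. Proteasome genes deviated there by a median of 0.02 in the library labelled 10-month transgenic 1 and −0.06 in 3-month control 1 on the log2 scale, and the part of these tissues in the results was not tested. Mapt, the mouse tau gene whose reads may include the transgene's, averaged 46.1 ± 2.48 FPKM in 3-month transgenic and 8.70 ± 2.88 FPKM in 3-month control cortex (SD, n = 3). At 10 months it was at 42.6, 12.4 and 3.31 FPKM in libraries labelled transgenic and, in libraries labelled control, at 42.7, 8.13 and 9.08 FPKM, so it did not follow the labels there, and each 10-month direction below rests on the labels alone.

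Proteasome genes were abundant and steady in these libraries. The 34 subunit genes that reached a group mean of 1 FPKM had a median level of 20.5 FPKM, against 4.36 FPKM over the 9846 genes that did so. Their spread between libraries of a group had a median SD of 0.29 on the log2(FPKM + 0.1) scale, against 0.73 over all tested genes. Among genes averaging at least 10 FPKM, these medians were 0.28 for 29 proteasome genes and 0.43 for all 2683. Several levels are uncertain because part of the transcript is shared with a near-identical copy. The share of 31-base words held by the closest copy was 59.8% for Psmb5 (Gm3375), 51.8% for Psmb3, 50.5% for Psma5 (Gm8394), 29.1% for Psmc1 (Gm9575) and 28.8% for Psma4 (Gm6542). The 4 named copies were listed at no more than 6.74, 7.54, 4.79 and 5.81 FPKM in any library. The order of the 34 levels was much alike in every pair of libraries, with a Spearman rho across genes between 0.837 and 0.971, where genes are not independent replicates. No such value was computed over all genes. Pearson's r of log2(FPKM + 0.1) was lower for pairs with 3-month control 1, between 0.539 and 0.614, and at least 0.769 for all others. In these bulk samples fewer cells of a type and less RNA per cell cannot be told apart.

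**Figure D1:**
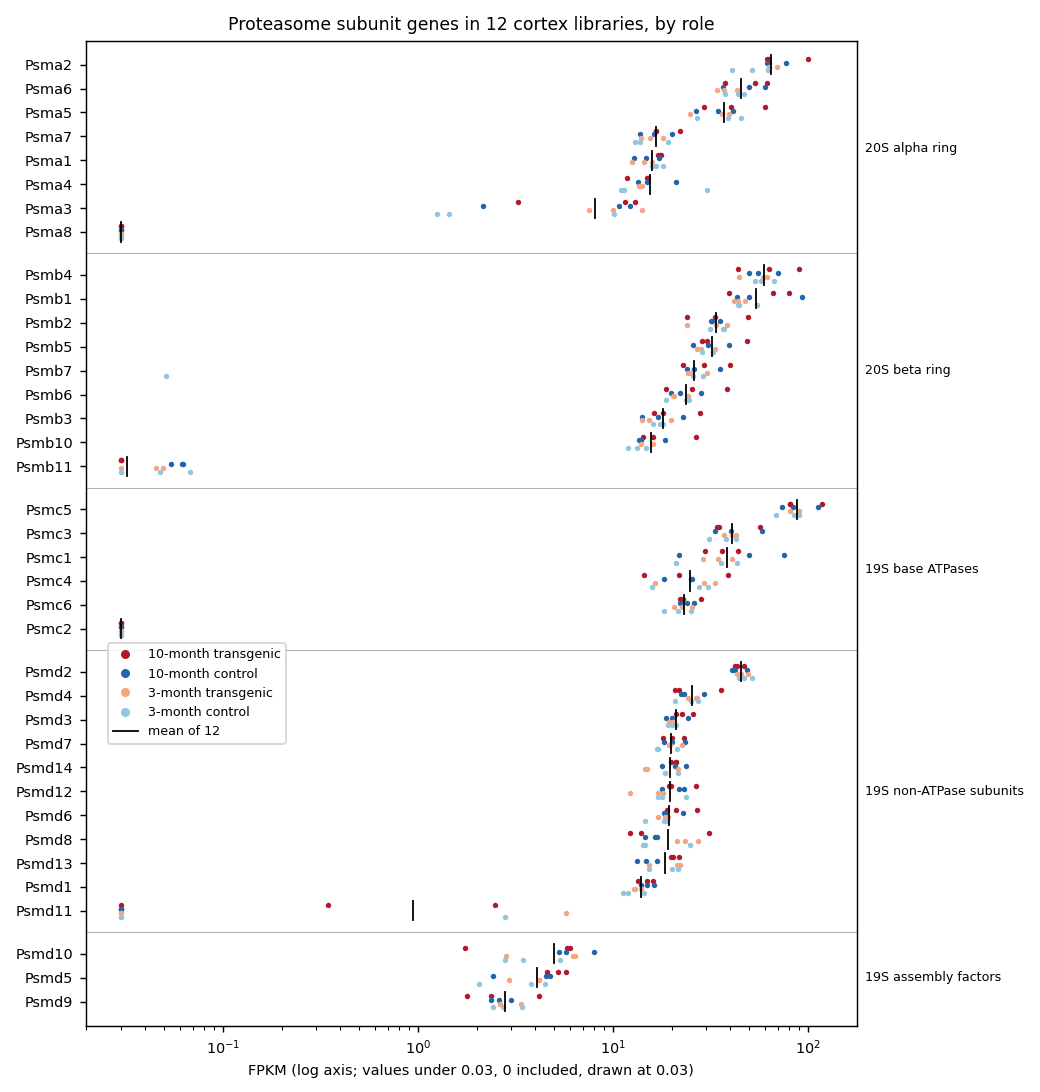
FPKM (log axis) of the 37 proteasome subunit genes in each of the 12 libraries, grouped by role, with colours for the labelled groups and a line at the mean of the 12. Most genes sit between 10 and 100 FPKM, while Psma8, Psmb11, Psmc2 and, in most libraries, Psmd11 lie at or near 0.

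Of the 20S alpha ring, whose tails close the entry pore, Psma2 had the highest mean over the 12 libraries. Psma2 was at 62.04, 61.4 and 99.5 FPKM in 10-month libraries labelled transgenic, 76.99, 63.5 and 61.5 FPKM in 10-month control libraries, 69.1, 63.4 and 62.9 FPKM in 3-month transgenic libraries and 62.1, 40.7 and 51.7 FPKM in 3-month control libraries. The library labelled 10-month transgenic 3 was far above the rest, the 10-month groups overlapped, and at 3 months every transgenic library was above every control library. Psma1 was at 17.5, 16.98 and 17.5 FPKM in 10-month libraries labelled transgenic, 14.8, 17.3 and 12.8 FPKM in 10-month control libraries, 14.4, 12.6 and 15.9 FPKM in 3-month transgenic libraries and 15.8, 16.7 and 18.2 FPKM in 3-month control libraries. Its libraries differed little, both genotype pairs overlapped, and each 10-month library labelled transgenic was above each 3-month transgenic library. Psma6, Psma5, Psma7 and Psma4 averaged 45.2 ± 9.41, 37.03 ± 9.89, 16.6 ± 2.86 and 15.4 ± 5.32 FPKM (SD, n = 12 libraries of all groups).

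Psma3, a further alpha ring subunit, stood apart from its ring. It was at 3.27, 12.99 and 11.5 FPKM in 10-month libraries labelled transgenic, 2.17, 10.7 and 12.2 FPKM in 10-month control libraries, 14.2, 10.04 and 7.54 FPKM in 3-month transgenic libraries and 10.1, 1.45 and 1.26 FPKM in 3-month control libraries. In 4 libraries, 1 of them labelled 10-month transgenic, 1 labelled 10-month control and 2 labelled 3-month control, it lay between 1.26 and 3.27 FPKM, and in the other libraries between 7.54 and 14.2 FPKM. Of its 31-base words, 22.8% also occur in the processed pseudogene Gm13835. Gm13835 was listed at 4.18, 11.2 and 19.4 FPKM in the 10-month libraries labelled transgenic, 4.82, 0 and 2.91 FPKM in 10-month controls, 14.3, 0 and 0 FPKM in 3-month transgenic libraries and 0, 0 and 13.8 FPKM in 3-month controls. How reads were divided between the gene and its copy was not tested, so the Psma3 levels are uncertain. Psma8, the testis form of an alpha subunit, was listed at 0 in all 12 libraries.

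The beta ring holds the 3 constitutive active sites. Psmb5 supplies the chymotrypsin-like site and was at 30.3, 28.6 and 48.98 FPKM in 10-month libraries labelled transgenic, 39.4, 30.8 and 25.8 FPKM in 10-month control libraries, 33.5, 28.5 and 26.9 FPKM in 3-month transgenic libraries and 32.5, 28.7 and 32.5 FPKM in 3-month control libraries. Psmb6, with the caspase-like site, was at 25.5, 18.7 and 38.5 FPKM in 10-month libraries labelled transgenic, 28.5, 19.9 and 22.1 FPKM in 10-month control libraries, 24.3, 20.3 and 20.5 FPKM in 3-month transgenic libraries and 24.7, 18.7 and 23.7 FPKM in 3-month control libraries. For both genes the library labelled 10-month transgenic 3 was the highest and the groups of each age overlapped. Psmb7, with the trypsin-like site, was at 29.5, 22.9 and 39.7 FPKM in 10-month libraries labelled transgenic, 35.6, 26.1 and 23.97 FPKM in 10-month control libraries, 30.4, 25.1 and 24.1 FPKM in 3-month transgenic libraries and 0.0510, 25.6 and 28.8 FPKM in 3-month control libraries. The 3-month control 1 library listed it near 0, while the 11 others lay between 22.9 and 39.7 FPKM. Psmb7 lies on chromosome 2 (38588036 to 38644087, minus strand, GRCm38), and 405 of its exonic bases lie opposite exons of Nek6, which the 3-month control 1 library listed at 2.31 FPKM and the others between 0.818 and 4.41 FPKM.

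The highest beta gene by mean was Psmb4, a structural subunit without an active site, and the lowest of those tested was Psmb10. Psmb4 was at 63.5, 43.98 and 89.7 FPKM in 10-month libraries labelled transgenic, 70.04, 55.5 and 49.6 FPKM in 10-month control libraries, 61.8, 44.5 and 59.2 FPKM in 3-month transgenic libraries and 57.6, 53.7 and 67.2 FPKM in 3-month control libraries. Psmb10, which replaces Psmb7 in the immunoproteasome, was at 15.96, 14.2 and 26.6 FPKM in 10-month libraries labelled transgenic, 18.4, 13.9 and 13.6 FPKM in 10-month control libraries, 16.04, 15.9 and 13.9 FPKM in 3-month transgenic libraries and 11.9, 13.3 and 14.8 FPKM in 3-month control libraries. Both genes were highest in the library labelled 10-month transgenic 3, and their groups overlapped at each age. The partners of Psmb10 in the immunoproteasome were far lower, with Psmb8 between 0.333 and 1.64 FPKM and Psmb9 between 0 and 0.399 FPKM. Psmb1, Psmb2 and Psmb3, the other constitutive beta genes, averaged 54.03 ± 17.1, 33.97 ± 6.65 and 18.1 ± 3.98 FPKM (SD, n = 12). Psmb11, the thymus form of the Psmb5 subunit, lies 3410 bases from Psmb5 on chromosome 14 and did not exceed 0.0676 FPKM in any library.

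The ATPases of the 19S base unfold the substrate. Psmc5 was the most abundant proteasome gene, at 81.1, 81.1 and 118 FPKM in 10-month libraries labelled transgenic, 112, 83.4 and 73.8 FPKM in 10-month control libraries, 89.9, 80.7 and 89.6 FPKM in 3-month transgenic libraries and 84.4, 68.3 and 89.97 FPKM in 3-month control libraries. Psmc6, the lowest of the 5 ATPase genes tested, was at 21.99, 23.01 and 28.2 FPKM in 10-month libraries labelled transgenic, 26.1, 22.01 and 23.99 FPKM in 10-month control libraries, 20.5, 25.4 and 22.6 FPKM in 3-month transgenic libraries and 18.2, 21.5 and 25.02 FPKM in 3-month control libraries. Both genes had overlapping groups at each age, and Psmc6 varied by 11.6% of its mean (SD over 12 libraries). Psmc3, Psmc1 and Psmc4 averaged 40.8 ± 8.49, 38.4 ± 14.5 and 24.8 ± 7.62 FPKM (SD, n = 12). Psmc2, which codes for an ATPase that no other gene replaces in the ring, was listed at 0 in 7 libraries and at no more than 0.00974 FPKM in the rest. None of its 31-base words occurs in another annotated gene, and whether its values are failed estimates was not tested. Psmc2 was singled out after its values were seen.

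Among the non-ATPase subunits, Psmd2, a scaffold of the base that docks ubiquitin-like proteins, was the steadiest proteasome gene in these libraries. Psmd2 was at 43.3, 42.3 and 47.2 FPKM in 10-month libraries labelled transgenic, 48.7, 42.5 and 40.7 FPKM in 10-month control libraries, 49.5, 45.6 and 43.05 FPKM in 3-month transgenic libraries and 44.1, 47.1 and 51.7 FPKM in 3-month control libraries. Its SD over 12 libraries was 7.44% of the mean and the groups of each age overlapped, although 41.2% of its 31-base words are shared with the transcribed pseudogene Gm5422, listed at up to 9.03 FPKM. Psmd1, the scaffold's other large subunit, was at 13.4, 14.97 and 16.1 FPKM in 10-month libraries labelled transgenic, 16.2, 14.9 and 14.02 FPKM in 10-month control libraries, 12.8, 13.9 and 12.95 FPKM in 3-month transgenic libraries and 11.2, 11.9 and 14.5 FPKM in 3-month control libraries. Psmd12, a lid subunit, was at 19.5, 19.8 and 26.6 FPKM in 10-month libraries labelled transgenic, 23.1, 21.7 and 17.8 FPKM in 10-month control libraries, 18.03, 12.3 and 17.1 FPKM in 3-month transgenic libraries and 17.8, 17.04 and 23.7 FPKM in 3-month control libraries. The groups of each age overlapped for both, Psmd1 was lowest in 3-month control libraries 1 and 2, and Psmd12 was higher in every 10-month library labelled transgenic than in any 3-month transgenic library.

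Psmd13, also a lid subunit, was at 21.9, 20.4 and 19.9 FPKM in 10-month libraries labelled transgenic, 16.8, 13.2 and 14.8 FPKM in 10-month control libraries, 15.3, 22.1 and 21.3 FPKM in 3-month transgenic libraries and 20.2, 15.4 and 21.5 FPKM in 3-month control libraries. Its 10-month groups did not overlap, the 3 libraries labelled control being the lowest there, while the 3-month groups overlapped. Part of its exons, 342 bases, lies opposite Sirt3, which stayed between 5.37 and 7.20 FPKM in all libraries. The processed pseudogene Gm15542 lies within the gene on the same strand without sharing exonic bases. Gm15542 was listed at 38.6, 32.6 and 41.7 FPKM in 10-month libraries labelled transgenic and 50.5, 41.2 and 42.6 FPKM in 10-month control libraries. At 3 months it lay between 14.4 and 45.5 FPKM. Its part in the Psmd13 values was not tested. Psmd11, whose product clamps the lid to the core, was at 0, 2.49 and 0.345 FPKM in 10-month libraries labelled transgenic, 0, 0 and 0 FPKM in 10-month control libraries, 0, 5.72 and 0 FPKM in 3-month transgenic libraries and 2.79, 0 and 0 FPKM in 3-month control libraries. Only 4 of 12 libraries listed it above 0, and it entered the tests through the 3-month transgenic 2 library alone, so its fold changes are set by the pseudocount. The remaining subunits form a narrow band: the lid genes Psmd3 (21.04 ± 2.14 FPKM), Psmd7 (19.96 ± 2.27), Psmd6 (19.4 ± 3.09) and Psmd8 (19.2 ± 6.15), the ubiquitin receptor Psmd4 (25.4 ± 4.33) and the deubiquitinase Psmd14 (19.5 ± 2.73), each as mean ± SD of 12 libraries.

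The assembly factors, chaperones that help to build the 19S base and leave the finished particle, were the least abundant group apart from the genes near 0. Psmd10 was at 5.83, 1.75 and 6.03 FPKM in 10-month libraries labelled transgenic, 7.99, 5.75 and 5.28 FPKM in 10-month control libraries, 6.36, 2.83 and 6.26 FPKM in 3-month transgenic libraries and 5.38, 2.79 and 3.47 FPKM in 3-month control libraries. Psmd5 was at 4.59, 5.77 and 5.26 FPKM in 10-month libraries labelled transgenic, 4.76, 4.55 and 2.44 FPKM in 10-month control libraries, 2.94, 4.16 and 4.17 FPKM in 3-month transgenic libraries and 4.48, 3.81 and 2.06 FPKM in 3-month control libraries. Psmd9 was at 1.79, 2.37 and 4.19 FPKM in 10-month libraries labelled transgenic, 2.99, 2.61 and 2.37 FPKM in 10-month control libraries, 3.37, 2.64 and 2.63 FPKM in 3-month transgenic libraries and 3.43, 2.43 and 2.72 FPKM in 3-month control libraries. Psmd10 was lowest in the library labelled 10-month transgenic 2, Psmd5 in the 3-month control 3 library and Psmd9 in the library labelled 10-month transgenic 1, and for all 3 genes the groups of each age overlapped. Each of these means lay below the lowest mean of the tested core and ATPase genes, 8.11 FPKM.

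The promoters were searched for motifs of known regulators of these genes and of housekeeping genes. RefSeq promoters of GRCm38.p6, from 250 bases before to 50 bases after the gene start, were at hand for 30 of the 37 genes, in 32 promoters. Genes without an entry were Psma8, Psmb1, Psmb2, Psmb7, Psmc3, Psmd3 and Psmd7. TGACNNNGC, the core of the antioxidant response element that NRF1 and NRF2 can bind, occurred on either strand in 15.6% of the proteasome promoters and 12.4% of all 32851 promoters. The variant core TGAGNNNGC occurred in 37.5% against 17.6%, and CCGGAAG, a core of ETS factor sites, in 34.4% against 8.86%. CCAAT, bound by NF-Y, occurred in 37.5% against 37.4%, and GGGCGG, the GC box, in 56.2% against 35.7%. The proteasome promoters had a median GC content of 55.8%, against 52.7% for all. The first and second cores cannot match at the same place, matches to the other motifs may share bases, and a match describes letters, not binding.

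The 5 proteasome promoters with TGACNNNGC are shown by the bases around the match, upstream of the RefSeq gene start and outside annotated exons, 5′ to 3′ on the gene's strand, with the match in capitals (for Psmc6 and Psmd12 it reads on the opposite strand). They cover 2 active-site genes, an ATPase, a lid gene and an assembly factor. In GRCm38.p6 Psmb5 is at chr14:54618023-54618068 (minus strand), Psmb6 at chr11:70525322-70525356 (plus strand), Psmc6 at chr14:45329574-45329631 (plus strand), Psmd12 at chr11:107479278-107479315 (plus strand) and Psmd9 at chr5:123228133-123228189 (plus strand). The Psmd9 stretch lies inside the gene as GENCODE annotates it, from 123169413 to 123250131 on the plus strand, and outside its exons.
Psmb5: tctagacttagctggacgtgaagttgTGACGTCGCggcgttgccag
Psmb6: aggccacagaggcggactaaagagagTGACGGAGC
Psmc6: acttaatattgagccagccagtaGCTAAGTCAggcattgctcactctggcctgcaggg
Psmd12: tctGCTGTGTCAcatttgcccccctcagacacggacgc
Psmd9: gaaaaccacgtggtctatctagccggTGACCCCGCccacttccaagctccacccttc

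CCGGAAG is shown, on the opposite strand in capitals, for the steadiest subunit gene, Psmd2, and for Psmd11, which most libraries listed at 0. The Psmd2 stretch of GRCm38.p6 is at chr16:20651600-20651651 (plus strand) and the Psmd11 stretch at chr11:80428578-80428614 (plus strand).
Psmd2: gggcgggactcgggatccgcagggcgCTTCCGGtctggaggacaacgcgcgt
Psmd11: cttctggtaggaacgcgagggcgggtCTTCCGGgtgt

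The first comparison asks whether proteasome genes differ with the transgene label in 10-month cortex. None of the 34 tested genes passed an adjusted p of 0.05 (limma, Benjamini-Hochberg over 9846 genes), where 0.0102% of all genes did. Positive log2 fold changes were found for 26 genes (76.5%) against 50.7% of all genes tested. They were small, with a median of 0.08 against 0.01 over all genes, and 32 of 34 estimates lay within 1.5-fold either way. By role, 8 of 8 beta ring, 6 of 7 alpha ring, 3 of 5 ATPase, 8 of 11 non-ATPase and 1 of 3 assembly genes were positive. The split of 26 positive and 8 negative was 23 and 11 with median-ratio size factors and 22 and 12 with quantile normalization. In the authors' deposited table Psma3, Psmb2, Psmc4, Psmc5, Psmc6, Psmd2, Psmd4 and Psmd8, positive here, had negative 10-month log2 fold changes. Psmd14 alone turned the other way, so the share of positive genes was smaller there. The authors' fold changes are not ratios of the listed mean FPKM, so these signs come from unlike measures.

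The direction of the median depended on which libraries were kept. In the library labelled 10-month transgenic 3, 33 of 34 proteasome genes were above their own median over the 12 libraries, by a median of 0.51 on the log2 scale, and 20 had their highest value there. The library labelled 10-month control 1 came next, with 27 genes above by a median of 0.25 and 7 highest. Summed over the 37 genes, levels were 927, 802 and 1250 FPKM in 10-month libraries labelled transgenic, 1121, 900 and 795 FPKM in those labelled control, 932, 847 and 854 FPKM in 3-month transgenic libraries and 812, 788 and 964 FPKM in 3-month controls. Without the library labelled 10-month transgenic 3, the median log2 fold change became −0.09, and without that library and 10-month control 1 together, a choice made after seeing the data, it was 0.05. The same library also listed short genes higher and long genes lower, with medians of 0.30 for genes under 1 kb, 0.23 for 1 to 2 kb, −0.01 for 2 to 4 kb and −0.53 for 4 kb and over, while the proteasome genes' median length was 1272 bases. The part of length in the proteasome values was not tested.

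**Figure D2:**
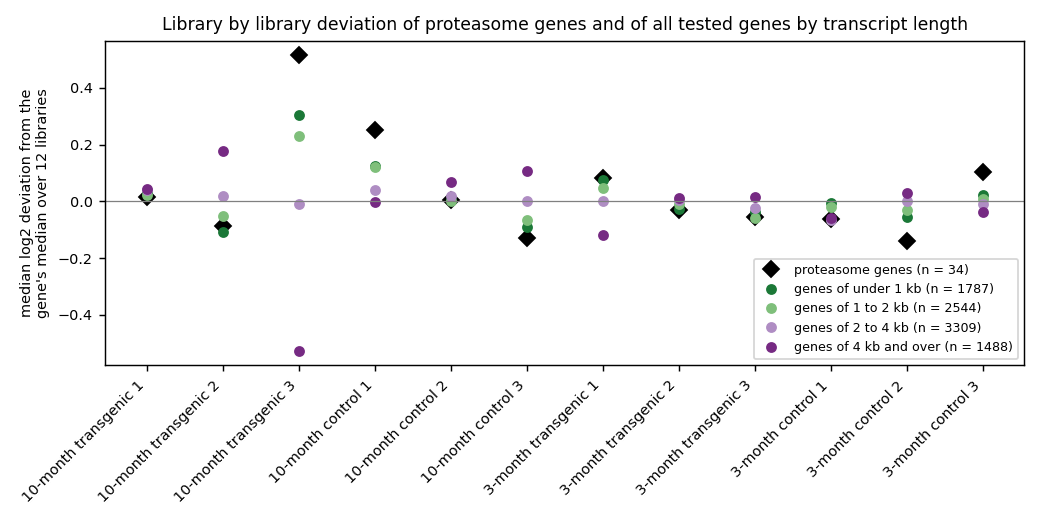
Median log2 deviation from each gene's median over the 12 libraries (vertical axis), per library, for the 34 tested proteasome genes (diamonds) and for all tested genes by transcript length (circles). The library labelled 10-month transgenic 3 stands highest for proteasome genes, at 0.51, and splits the length classes most widely, between 0.30 and −0.53.

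Among single genes at 10 months, Psmd13 had the smallest p. It averaged 20.8 ± 1.04 FPKM in libraries labelled transgenic and 14.9 ± 1.76 FPKM in those labelled control (SD, n = 3), or 0.48 in log2 fold change (SE 0.20, adjusted p = 0.969 by limma). It was the 1 gene of 34 with an unadjusted p under 0.05, against 4.4% of all genes, and the 1 gene (2.94%) whose 10-month groups did not overlap, against 8.26% of all genes. Its value ranged from 0.40 to 0.57 when each library was left out in turn. Psma1 followed, at 17.3 ± 0.314 FPKM with the transgenic label against 14.96 ± 2.27 FPKM with the control label (SD, n = 3). Its log2 fold change was 0.22 (SE 0.17, adjusted p = 0.969 by limma), and 0.12 without the library labelled 10-month control 3. The assembly factor Psmd5 came next, at 5.21 ± 0.594 FPKM with the transgenic label against 3.92 ± 1.29 FPKM with the control label (SD, n = 3), with 0.45 (SE 0.36, limma adjusted p = 0.969), and 0.15 without the same control library. Of the 34 genes, 26 had a 95% interval within 2-fold in either direction and 11 within 1.5-fold. For the 8 others a 2-fold difference lies inside the interval.

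At 3 months, where Mapt followed the labels, 0 of 34 proteasome genes passed an adjusted p of 0.05 (limma), against 0.0406% of all genes. None had an unadjusted p under 0.05, against 3.39% of all genes. The log2 fold changes were positive for 20 genes (58.8%, against 52.1% of all), with a median of 0.07 against 0.02. By role, 2 of 8 beta ring, 3 of 7 alpha ring, 5 of 5 ATPase, 7 of 11 non-ATPase and 3 of 3 assembly genes were positive. The median fell to −0.03 without 3-month control 1, and likewise without 3-month control 2.

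Psma3 had the smallest p at 3 months. It averaged 10.6 ± 3.35 FPKM in transgenic and 4.26 ± 5.04 FPKM in control cortex (SD, n = 3), or 1.90 in log2 fold change (SE 0.90, adjusted p = 1 by limma). The value comes from 3-month control libraries 2 and 3, the control 1 library lying among the transgenic ones, and it was 2.83 without control 1 and 1.38 without control 3. Psma2 averaged 65.1 ± 3.42 FPKM in transgenic and 51.5 ± 10.7 FPKM in control cortex (SD, n = 3), with 0.36 (SE 0.23, limma adjusted p = 1), and 0.20 without 3-month control 2. It was the 1 gene (2.94%) whose 3-month groups did not overlap, against 7.98% of all genes. Psmb7 had 2.46 in log2 fold change (SE 1.60, adjusted p = 1 by limma), which came from its value near 0 in 3-month control 1, and without that library it was −0.04. The 95% intervals of 28 genes lay within 2-fold in either direction.

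**Figure D3:**
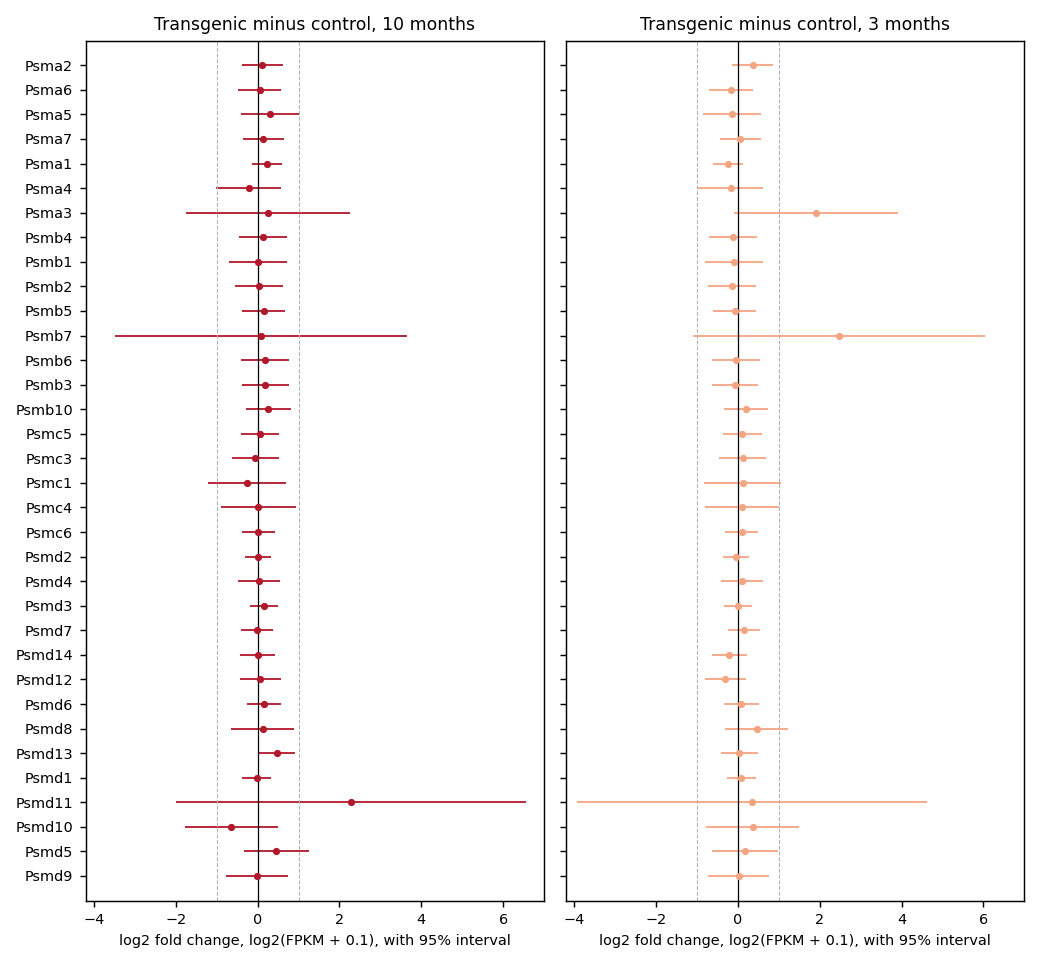
Log2 fold change, transgenic minus control on the log2(FPKM + 0.1) scale, of the 34 tested proteasome genes at 10 months (left) and 3 months (right), with 95% intervals and dashed lines at 2-fold. Only the Psmd13 interval at 10 months leaves out 0, and the widest intervals belong to Psmd11, Psmb7 and Psma3.

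The age by genotype interaction asks whether the genotype difference at 10 months exceeds that at 3 months. It was called for 0 of 34 proteasome genes (limma), against 0.0508% of all genes, and 0 had an unadjusted p under 0.05, against 3.32%. It was positive for 19 genes (55.9%, against 48.9% of all), and the sign of the median turned without the library labelled 10-month transgenic 3. The estimate was 0.47 for Psma1 (SE 0.23, limma adjusted p = 0.987), 0.44 for Psmd13 (SE 0.28, adjusted p = 0.987) and −1.003 for Psmd10 (SE 0.72, adjusted p = 0.987). Psma1 was thus 0.22 higher with the label at 10 months and 0.24 lower at 3 months on the log2 scale, with overlapping groups at both ages. Psmd10 averaged 4.53 ± 2.41 FPKM in 10-month libraries labelled transgenic and 6.34 ± 1.45 FPKM in those labelled control, and 5.15 ± 2.01 and 3.88 ± 1.34 FPKM in 3-month transgenic and control cortex (SD, n = 3). With both ages averaged, genotype was called for 0 of 34 genes, against 0.0508% of all genes, and 0 had an unadjusted p under 0.05, against 3.75%. Of the averaged genotype effects 67.6% were positive, against 51.2% of all.

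**Figure D4:**
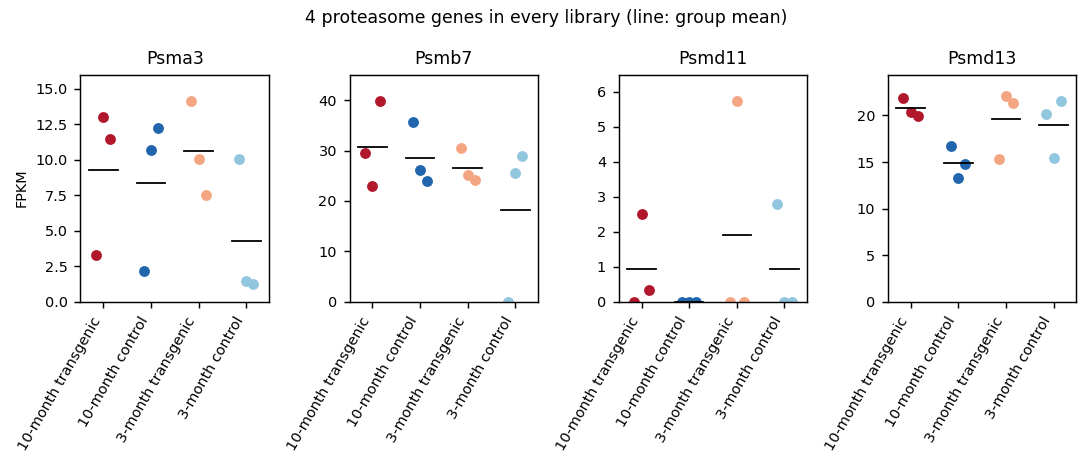
FPKM of Psma3, Psmb7, Psmd11 and Psmd13 in each library, by labelled group, with a line at the group mean (n = 3). Psmd13 separates the 10-month groups, at 19.9 to 21.9 FPKM against 13.2 to 16.8 FPKM, while Psma3, Psmb7 and Psmd11 differ within groups.

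Age was compared within each genotype, where the ages also come from separate deposited tables, so that age and table cannot be told apart. In libraries labelled transgenic, 0 of 34 proteasome genes passed between 10 and 3 months (limma), against 0.0203% of all genes, and 0 had an unadjusted p under 0.05, against 4.31%. The fold changes were positive for 26 genes (76.5%, against 54% of all), with a median of 0.17 against 0.05, and −0.02 without the library labelled 10-month transgenic 3. Groups did not overlap for 4 genes (11.8%, against 9.43% of all), Psmd12, Psma1, Psmd3 and Psmd5, all higher at 10 months. Psmd12 averaged 21.97 ± 4.01 FPKM at 10 months and 15.8 ± 3.10 FPKM at 3 months (SD, n = 3), or 0.48 in log2 fold change (SE 0.22, adjusted p = 0.974 by limma). Psma1 averaged 17.3 ± 0.314 FPKM at 10 months and 14.3 ± 1.64 FPKM at 3 months (SD, n = 3), with 0.29 (SE 0.17, limma adjusted p = 0.974).

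In control cortex age was called for 0 of 34 genes (limma), against 0.0305% of all genes, and 0 had an unadjusted p under 0.05, against 4.19%. The split was 24 positive (70.6%, against 56% of all) and 10 negative, 19 and 15 with size factors and 20 and 14 with quantile normalization, and the median of 0.10 on the log2 scale became −0.02 without the library labelled 10-month control 1. Psma2 averaged 67.3 ± 8.45 FPKM at 10 months and 51.5 ± 10.7 FPKM at 3 months (SD, n = 3), with 0.40 (SE 0.23, limma adjusted p = 0.994). Psmd13 averaged 14.9 ± 1.76 FPKM at 10 months and 19.03 ± 3.23 FPKM at 3 months (SD, n = 3), with −0.34 (SE 0.20, limma adjusted p = 0.994). No proteasome gene had groups that did not overlap, against 10.1% of all genes. Over both genotypes age was called for 0 of 34 genes, against 0.0813% of all genes, with 0 at an unadjusted p under 0.05, against 4.4%, and 79.4% of the effects were positive, against 56.2% of all. The smallest p values belonged to Psmd1 (0.21, SE 0.11, limma adjusted p = 0.935) and Psmd12 (0.29, SE 0.16, limma adjusted p = 0.935).

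The authors' deposited table lists p-values for 36 of the 37 genes at each age, and none had a q-value under 0.05, against 0.0052% of all genes with a p-value in the authors' deposited table at 10 months and 0.0156% at 3 months. At 10 months 2 of the 36 genes had p under 0.05 in the authors' deposited table, against 4.14% of all genes there: Psmd13, with a fold of 1.39 (p = 0.0240, q = 0.854), and Psmb11, with a fold of 0.944 (p = 0.000332, q = 0.311). Psmb11 was listed at 0 in each 10-month library labelled transgenic while the 10-month control libraries listed 0.0627, 0.0540 and 0.0615 FPKM, far under the filter used here. Its fold of 0.944 is thus not the ratio of these values. At 3 months 1 of the 36 genes did in the authors' deposited table, against 3.22% of all genes there: Psma2, with a fold of 1.37 (p = 0.0284, q = 0.904).

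Genes that work with the proteasome were read from lists chosen with earlier results of these data known. None of the tested genes of these lists passed an adjusted p of 0.05 in either genotype comparison (limma). The lists covered 5 activators and inhibitors of the core, 5 core assembly chaperones, 5 receptors and deubiquitinases bound to the 26S particle, 10 genes of shuttle factors, VCP and its cofactors, 4 ubiquitin genes and 5 genes of the NRF1 pathway, as counts of genes tested. At 10 months 4, 4, 2, 3, 3 and 2 of them, in that order, had positive fold changes, and at 3 months 3, 3, 4, 5, 2 and 2. Of the 10, Ubqln2 and Vcp entered the tests through the library labelled 10-month control 2 alone. It listed them at 3.79 and 38.7 FPKM, and the other libraries at no more than 0 and 0.113 FPKM, so it set their negative 10-month values. Lists with under 3 tested genes were the immunoproteasome and the ubiquitin-activating E1 enzymes. Of the immunoproteasome, Psmb8 and Psmb10 had positive values at 10 months and stood at −0.47 and 0.20 in log2 fold change at 3 months. Psmb8 passed the filter only through the 10-month group labelled transgenic, averaging 1.26 FPKM there. It averaged 0.801 FPKM in 10-month control, 0.479 FPKM in 3-month transgenic and 0.673 FPKM in 3-month control libraries. Its positive 10-month value is therefore tied to its entry into the tests. Of the E1 enzymes Uba1 was tested (log2 fold change −0.05 at 10 months and 0.05 at 3 months, SE 0.12).

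Nfe2l1, the gene of NRF1, was at 22.5, 22.1 and 46.7 FPKM in 10-month libraries labelled transgenic, 48.5, 51.6 and 49.6 FPKM in 10-month control libraries, 15.95, 49.03 and 20.4 FPKM in 3-month transgenic libraries and 16.04, 29.8 and 40.3 FPKM in 3-month control libraries. Its 10-month libraries labelled transgenic were all below those labelled control, at −0.80 in log2 fold change (SE 0.47, adjusted p = 0.969 by limma), while the 3-month groups overlapped and varied widely. Psme1, a subunit of the PA28 activator, was at 12.1, 11.01 and 18.4 FPKM in 10-month libraries labelled transgenic, 10.8, 9.82 and 9.74 FPKM in 10-month control libraries, 12.5, 6.37 and 10.5 FPKM in 3-month transgenic libraries and 8.63, 7.17 and 11.97 FPKM in 3-month control libraries. Its 10-month libraries labelled transgenic were all above those labelled control (log2 fold change 0.41, SE 0.30, limma adjusted p = 0.969). Of the other tested list genes, Uba1 and Ubqln4 also lay below without overlap at 10 months, and Ngly1 of the NRF1 pathway lay above. For Uba1 the groups nearly touched, at 75.32 FPKM for the highest transgenic label and 75.36 FPKM for the lowest control label. Over all genes tested, 8.26% had 10-month groups that did not overlap. Shfm1, the older symbol of Sem1, a small lid subunit outside the naming rule, was at 32.5, 27.4 and 42.1 FPKM in 10-month libraries labelled transgenic, 12.05, 30.4 and 2.27 FPKM in 10-month control libraries, 31.3, 26.4 and 31.7 FPKM in 3-month transgenic libraries and 3.32, 10.1 and 36.5 FPKM in 3-month control libraries. It fell into high and low values within both control groups, and its log2 fold changes were 1.81 at 10 months (SE 0.94, limma adjusted p = 0.969) and 1.46 at 3 months (SE 0.94, limma adjusted p = 1).

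The other genes with the smallest p of their list had overlapping groups. At 10 months these were Rps27a, a ubiquitin and ribosomal fusion gene (2.12, SE 1.32), the shuttle factor Ubqln2 (−1.76, SE 1.31) and the assembly chaperone Psmg4 (0.56, SE 0.48), each with a limma adjusted p of 0.969. Rps27a reached 47.7 FPKM in the library labelled 10-month transgenic 1 and at most 6.42 FPKM in the other 11 libraries. Ubqln2 was listed above 0 in 1 library only, the control library that brought it into the tests. At 3 months they included the protease Ddi2 that activates NRF1 (0.65, SE 0.41), the proteasome inhibitor Psmf1 (−0.72, SE 0.52), the chaperone Psmg1 (0.19, SE 0.20) and Nfe2l2, the gene of NRF2 (0.42, SE 0.50), each as a log2 fold change with a limma adjusted p of 1. Ubb, the most abundant ubiquitin gene measured, lay between 354 and 552 FPKM in all libraries.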

How the data were processed

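RNA from the cortex of 12 mice, 3 in each group, was sequenced after depletion of ribosomal RNA with a strand-specific kit, per the labels' protocols. The authors deposited a table for each age with FPKM per gene and library, the fold change (transgenic over control), the log2 of that fold change, and q-values beside p-values. Their fold change is not the ratio of the listed mean FPKM. For Psma2 at 10 months it is 1.002, where the means are 74.3 FPKM with the transgenic and 67.3 FPKM with the control label. The test behind the authors' p-values is not given in the sources used here. Likewise unstated is the annotation. The submitters' processing notes name StringTie 1.3.0, HISAT2 2.0.4, SAMtools and R 3.4.2, and the builds GRCm38 and mm10, without their order. The read depth is unknown, and 0 columns of sample values were left unused.

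The genes, roles, pathway lists and tests were chosen with earlier results of these data known. FPKM were analysed as log2(FPKM + 0.1), and fold changes on this scale understate changes of low genes. Genes averaging at least 1 FPKM in at least 1 group were tested, 9846 in all. One limma model (version 3.58.1, R 4.3.3, eBayes with trend and robust) held the 4 group means over the 12 libraries, and p-values were adjusted by Benjamini-Hochberg over these genes, at a threshold of 0.05. Both tables entered the fit, on the untested assumption that their FPKM were scaled alike. All p-values measure the spread between these animals only. The script was tested on simulated data.

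Values of all 12 libraries are given for genes with the smallest p (3 in each genotype comparison and in the interaction, 2 in each age effect), for the highest and lowest gene of each role, for the active-site genes and for genes of at least 5 FPKM that a library lists at 0 or under an eighth of the median. For each pathway list, the gene with the smallest p is named, except 1 gene that is not reported here. Coordinates come from GENCODE vM21 on GRCm38 and promoters from RefSeq. Shared sequence was counted as 31-base words of exons. Identity between the proteins was not analysed here.

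Alternatives were pseudocounts of 1 and 0.01, no filter on level, quantile normalization, size factors, a filter at 5 FPKM, a replicate block, eBayes without trend and robust, library weights, low values set to missing, each age alone and leaving out each library.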

Additional observations from a re-analysis of the deposited data

How the results depend on the processing

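Under 25 alternative settings, 163 of 163 counts of proteasome genes called were 0, and 163 of 163 median log2 fold changes moved by less than the pooled spread of 0.20. This spread exceeds every main median, the largest being 0.17, so a median could change sign and still count as not moved. Some settings, such as the replicate block, cannot move a median. The log2 fold change of Psmb7 at 3 months turned to −0.0397 both with low values set to missing and without 3-month control 1, and leaving out each library gave −0.0397 to 3.75. Medians changed sign when 1 library was left out for the interaction (−0.07 to 0.18) and for genotype over both ages (−0.05 to 0.13), each lowest without the library labelled 10-month transgenic 3. As given above, leaving out 1 library also turned the sign for genotype at each age and for age within each genotype. For age over both genotypes the median was −0.01 without 10-month transgenic 3 and 10-month control 1 together, an alternative added after seeing the data. The labels do not say whether animals with the same number were paired. Residuals of same-numbered pairs correlated at −0.07, 0.01 and −0.12 at 10 months and 0.00, −0.01 and −0.05 at 3 months. Pairs with different numbers correlated between −0.09 and 0.14 at 10 months and between −0.03 and 0.04 at 3 months. With the replicate block 0 genes were called. The median at 10 months stayed at 0.08, which the block cannot change, since each group holds each replicate number once. Unknown depth limits every value near 0.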
